A study of Mus musculus with 115 samples.

Results

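Inguinal fat of gonadectomised mice was examined for 5 genes: Ido1 (listed on the array as Indo), Tmprss2, Wfdc2 (listed as 1600023A02Rik), Fam25c (listed as 2200001I15Rik) and Glycam1. They were taken as every probe of the inguinal adipose table with 1 of those 5 symbols, which gave 6 of the 25697 probes, because Wfdc2 has 2. All 6 passed the filter on dim probes, which kept 14636 probes in adipose. The genes had been picked with measured values in view: Ido1, Tmprss2, Wfdc2 and Fam25c for a higher level in mice without the testis-determining gene Sry, and Glycam1 for its testosterone difference. Those differences are therefore described below without a test.

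The mice were of the FCG model (4 core genotypes), which separates gonad type from sex chromosomes on a C57BL/6J background. In it the Y chromosome lacks Sry and an Sry transgene may sit on an autosome. XX and XY- mice without Sry develop ovaries and are called the ovary line here, and XXSry and XY-Sry mice with the transgene develop testes and are called the testis line. Every mouse, blank controls included, had its gonads removed at 75 days of age and was given a capsule at once, which was blank (B), held testosterone (T, 5 mM) or held estradiol (E, 50 µg), and tissue was taken 3 weeks later. Adipose RNA of 55 arrays was read, with 3 arrays in XX B, 4 in each of XY-Sry B, XXSry E and XX T, and 5 in each of the others, and liver RNA of 60 arrays, 5 in each of 12 groups. Since all mice were gonadectomised, the line contrast compares animals that differed in gonads and Sry before surgery and in the transgene after it. The labels name no animal for an array, so p-values measure the spread between arrays.

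The inguinal fat pad of the mouse holds a mammary gland and a lymph node, and a dissected pad can hold either beside adipocytes. Ido1 encodes indoleamine 2,3-dioxygenase, which opens the kynurenine route of tryptophan breakdown. Tmprss2 encodes an epithelial transmembrane serine protease known as an androgen-responsive gene in prostate. Wfdc2 encodes a small secreted protein with whey acidic protein domains. Glycam1 encodes a sialomucin that is secreted in milk and is also a ligand of L-selectin on the high endothelial venules of lymph nodes. The working name of the set, mammary secretory genes, was set against milk and cell markers. Of the milk proteins, Csn3 (kappa-casein), Ltf (lactoferrin), Btn1a1 (butyrophilin), Lcn2 and Wfdc18 were detected in 27 of 27 ovary-line arrays. Csn2 (beta-casein) was detected in 2 of 27, and Wap, Lalba, Csn1s2a and Csn1s2b in 0 of 27. Of the 21 milk genes on the array, 9 were detected in no ovary-line array. The summed signal of the 9 milk genes that passed the filter had a median of 33691 in the ovary line and 18273 in the testis line. The name was thus borne out by only some milk genes, and Glycam1 moved with lymph node genes (r = 0.94 in the ovary line) and did not pass with the milk list (r = 0.38), so the genes are called by their symbols.

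Promoter sequence is shown for Fam25c and Tmprss2, whose levels differed with estradiol, and for Wfdc2, which moved with Tmprss2 from array to array. RefSeq (GRCm38.p6) gave the 250 bases before the transcription start for 4 of the 5 genes, all but Ido1. The stretches lie at chr14:34355394-34355643 on the minus strand, chr16:97611196-97611445 on the minus strand and chr2:164562465-164562714 on the plus strand (the first of 2 starts listed for Wfdc2). They read 5′ to 3′, in the direction of the gene, and capitals mark every match to a searched motif on either strand.
Fam25c: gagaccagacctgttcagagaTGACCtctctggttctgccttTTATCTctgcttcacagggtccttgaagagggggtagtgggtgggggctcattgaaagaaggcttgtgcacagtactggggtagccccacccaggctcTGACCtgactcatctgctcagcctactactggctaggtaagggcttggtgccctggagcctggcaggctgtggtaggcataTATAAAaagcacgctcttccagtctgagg
Tmprss2: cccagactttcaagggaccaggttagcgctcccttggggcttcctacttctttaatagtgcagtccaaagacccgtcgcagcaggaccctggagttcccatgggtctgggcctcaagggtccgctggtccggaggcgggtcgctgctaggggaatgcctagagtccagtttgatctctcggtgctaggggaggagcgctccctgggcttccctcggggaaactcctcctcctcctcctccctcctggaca
Wfdc2: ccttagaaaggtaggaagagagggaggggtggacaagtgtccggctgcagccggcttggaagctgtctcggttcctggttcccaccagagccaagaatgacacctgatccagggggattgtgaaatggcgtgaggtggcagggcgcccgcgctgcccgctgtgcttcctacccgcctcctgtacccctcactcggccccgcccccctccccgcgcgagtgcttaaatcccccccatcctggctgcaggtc
The motifs searched were the estrogen response element (GGTCA, any 3 bases, TGACC), its arm GGTCA, which the full element contains, the androgen response element (AGAACA, any 3 bases, TGTTCT), the STAT motif TTCNNNGAA, the GATA motif AGATAA and the TATA box TATAAA. The Fam25c stretch held 2 matches to GGTCA, at 229 and 110 bases before the start, 1 to AGATAA at 208 and 1 to TATAAA at 29. Among all 32851 listed promoters, 35.2% hold GGTCA, 9.99% hold AGATAA and 12.4% hold TATAAA in the same window. The Tmprss2 and Wfdc2 stretches held none of the 6 motifs. The Glycam1 stretch, which is not shown, held 1 match to the STAT motif, at 145 bases before the start, and none to the others. Of all promoters, 7.02% hold the STAT motif, 0.0639% the full estrogen response element and 0.00913% the full androgen response element. A match is a description of these letters only.

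Levels are log2 of the background-corrected, quantile-normalised signal, on which adipose values of these genes that were not detected (detection p not under 0.01) ran from 4.63 to 6.33. The median raw signal of an adipose array was 130 to 230, and 40.3% to 49.0% of probes were detected. Levels of different probes are not set against each other.

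Ido1, Tmprss2, Wfdc2 and Fam25c were detected in 27 of 27 ovary-line arrays and were lower in the testis line. Ido1 was 11.30 ± 0.92 (SD, n = 27) in the ovary line and 6.88 ± 1.48 (n = 28) in the testis line, where 18 of 28 arrays detected it. Tmprss2 was 10.44 ± 1.08 against 6.32 ± 1.48, with 15 of 28 testis-line arrays detecting it. Wfdc2 was 12.70 ± 0.74 against 8.28 ± 2.09, with 21 of 28. These 3 genes spread more from array to array in the testis line than in the ovary line. Fam25c was 8.84 ± 1.22 against 6.42 ± 0.92, with 18 of 28. The fitted differences, testis line minus ovary line over all treatments, were -4.36 ± 0.28 (SE) for Ido1, -4.25 ± 0.28 for Tmprss2, -4.40 ± 0.40 for Wfdc2 and -2.56 ± 0.21 for Fam25c on the log2 scale, beside a median of 0.03 over all probes. Without background correction they were -3.26 for Ido1, -2.89 for Tmprss2 and -1.59 for Fam25c. In this contrast, which served to choose the genes, 7.34% of all probes passed an adjusted p of 0.05 in either direction. Within each treatment the lowest ovary-line array lay above the highest testis-line array for all 4 genes, and the genes were chosen on this difference. The share of all probes that separate without overlap is not given, here or for the groups compared below. By limma, which is another measure, 1.80% (blank), 3.42% (testosterone) and 4.40% (estradiol) of all probes were called in the line contrast within a treatment. In bulk tissue, fewer cells of a type and less RNA per cell cannot be told apart.

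Glycam1 stood apart from the other 4. It was 9.81 ± 3.41 in the ovary line (21 of 27 arrays detected) and 9.36 ± 3.34 in the testis line (20 of 28), a fitted difference of -0.39 ± 0.78. Its values ran from 4.66 to 14.00 within the ovary line alone. Within groups its residual SD was 2.96, against 0.78 to 1.51 for the other 4 genes.

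**Figure D1:**
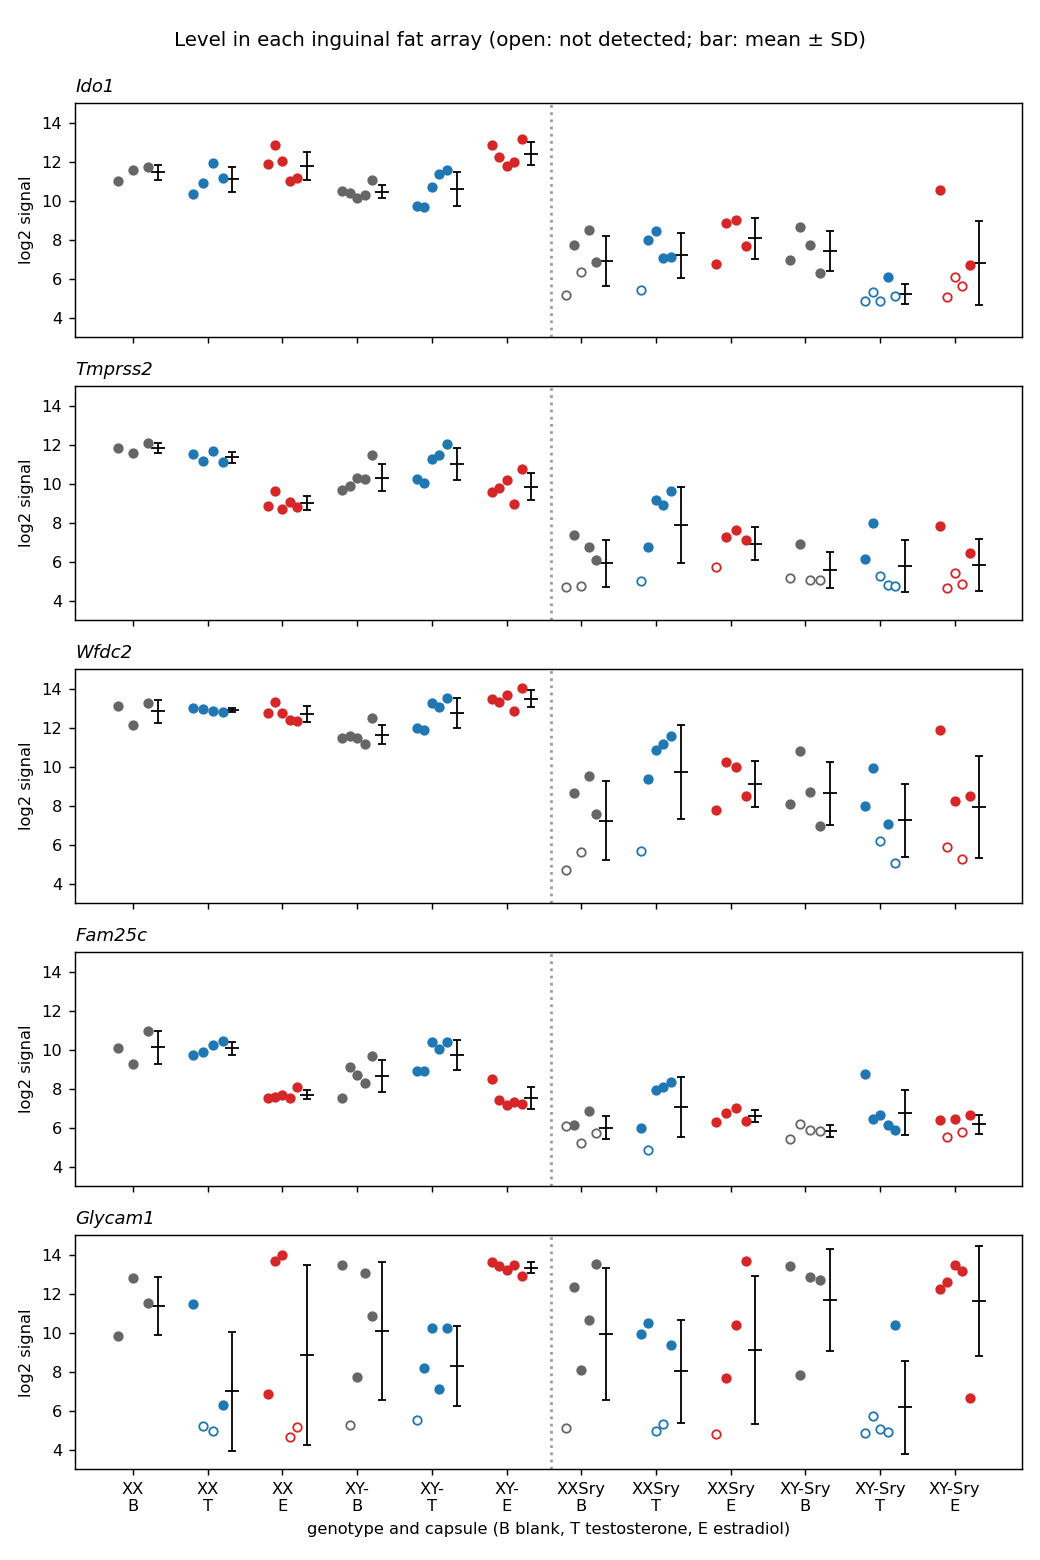
Log2 signal of each gene (y axis) in every adipose array, by genotype and capsule (x axis); open circles are arrays in which the probe was not detected, bars are mean ± SD, and the dotted line separates mice without Sry (left) from mice with Sry (right). Ido1, Tmprss2, Wfdc2 and Fam25c are detected in 27 of 27 arrays on the left, and Glycam1 spans 4.66 to 14.00 on that side.

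Estradiol was followed by lower Fam25c and Tmprss2 inside the ovary line. Fam25c read 10.11, 9.28 and 10.96 in the 3 XX B arrays and 7.55, 7.60, 7.70, 7.55 and 8.10 in the 5 XX E arrays. These XX groups did not overlap. In XY- it read 7.53, 9.09, 8.70, 8.27 and 9.66 with the blank capsule and 8.50, 7.40, 7.19, 7.34 and 7.20 with estradiol. The XY- groups overlapped through the array at 7.53 and the array at 8.50. Over both genotypes, weighted equally, estradiol minus blank was -1.77 ± 0.37 (SE), a 3.41-fold lower signal, with an adjusted p of 6.5e-04 (limma, Benjamini-Hochberg over all probes).

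Tmprss2 showed the same direction. It read 11.81, 11.58 and 12.10 in XX B and 8.87, 9.64, 8.72, 9.06 and 8.82 in XX E, again without overlap. In XY- it read 9.70, 9.87, 10.27, 10.22 and 11.47 with the blank and 9.58, 9.80, 10.18, 8.95 and 10.75 with estradiol, which overlapped. The difference over both genotypes was -1.63 ± 0.49 (adjusted p = 0.0235, limma), a 3.10-fold lower signal. In a fit with slide as a fixed block it was -1.61 at an adjusted p of 0.0715, and without XX B replicate 1, XX B replicate 3 or XY- B replicate 5 the adjusted p was 0.0545, 0.0607 and 0.0535.

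Of the 5 genes, 2 passed in estradiol minus blank, both lower, where 10.2% of all probes were called (5.10% lower and 5.10% higher). Ido1 and Wfdc2 had higher means with estradiol but did not pass. Ido1 read 11.03, 11.57 and 11.73 in XX B and 11.86, 12.84, 12.02, 11.03 and 11.16 in XX E. In XY- it read 10.51, 10.38, 10.14, 10.27 and 11.04 with the blank and 12.85, 12.24, 11.79, 12.00 and 13.18 with estradiol. The XX groups overlapped and the XY- groups did not. The difference for Ido1 over both genotypes was 1.14 ± 0.49 (adjusted p = 0.14, limma), and in XY- alone it was 1.94 ± 0.64 (adjusted p = 0.082). Without background correction the difference over both genotypes passed, at 1.09 (adjusted p = 0.023).

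Wfdc2 read 13.09, 12.15 and 13.28 in XX B, 12.76, 13.32, 12.74, 12.40 and 12.32 in XX E, 11.48, 11.57, 11.48, 11.18 and 12.49 in XY- B and 13.47, 13.33, 13.67, 12.86 and 14.04 in XY- E. The XX groups overlapped and the XY- groups did not. Its difference over both genotypes was 0.85 ± 0.71 (adjusted p = 0.54). The dimmer second probe of Wfdc2 gave 0.95 ± 0.38 (adjusted p = 0.11). In XY- alone the probes fell on different sides of the threshold, with 1.83 ± 0.93 (adjusted p = 0.31) for the brighter probe and 2.49 ± 0.50 (adjusted p = 9.0e-04) for the dimmer.

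Taken by genotype, estradiol minus blank passed for 2 of 5 genes in XX, where 8.26% of all probes were called, and for 0 of 5 in XY- (2 at an unadjusted p under 0.05), where 3.68% were called. In XX, Tmprss2 was -2.81 ± 0.74 (adjusted p = 0.013) and Fam25c -2.42 ± 0.55 (adjusted p = 0.0037). In XY-, they were -0.45 ± 0.64 (adjusted p = 0.80) and -1.13 ± 0.48 (adjusted p = 0.21). The test of the difference between XX and XY- called 0 of 5 genes by limma (2 at an unadjusted p under 0.05), against 0.260% of all probes. That difference was -2.36 ± 0.98 for Tmprss2 (adjusted p = 0.22), -1.29 ± 0.73 for Fam25c (adjusted p = 0.40), -5.77 ± 2.77 for Glycam1 (adjusted p = 0.295) and -3.08 ± 0.76 for the dimmer Wfdc2 probe (adjusted p = 0.053). With array weights Fam25c passed, at -1.77 (adjusted p = 0.039), and so did Glycam1, at -8.04 (adjusted p = 0.018). Averaged over treatments, XX minus XY- called 0 of 5 by limma (1 at an unadjusted p under 0.05, Fam25c at 0.66 ± 0.30), with 0.0820% of all probes called.

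No testosterone difference passed in the ovary line. Of the 4 genes tested, 0 were called in limma (0 at an unadjusted p under 0.05), with 0.417% of all probes called. The differences were -0.11 ± 0.50 for Ido1, 0.12 ± 0.51 for Tmprss2, 0.59 ± 0.73 for Wfdc2 and 0.52 ± 0.37 for Fam25c. Their 95% intervals ran from -1.12 to 0.90, from -0.90 to 1.14, from -0.87 to 2.05 and from -0.23 to 1.28, so Ido1 and Tmprss2 could differ by up to 1.12 and 1.14 on the log2 scale and Wfdc2 by 2.05. In testosterone-treated XX mice Tmprss2 read 11.52, 11.15, 11.68 and 11.11, and Fam25c 9.72, 9.90, 10.22 and 10.46, all above every XX E array.

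Set directly against each other, testosterone and estradiol differed for Fam25c and Tmprss2 in the ovary line. Fam25c was 9.89 ± 0.61 (SD, n = 9) with testosterone and 7.61 ± 0.41 (n = 10) with estradiol, and the arrays did not overlap. The difference was 2.29 ± 0.35 (SE; adjusted p = 5.0e-06, limma). Tmprss2 was 11.17 ± 0.64 against 9.44 ± 0.67, a difference of 1.75 ± 0.47 (adjusted p = 0.012). Ido1 lay the other way, 10.82 ± 0.78 against 12.10 ± 0.71, and did not pass (-1.25 ± 0.47, adjusted p = 0.097). It passed without background correction (adjusted p = 0.010), with an offset of 50 (adjusted p = 0.027) and without XY-Sry E replicate 1 (adjusted p = 0.029). Of 4 genes, 2 passed, both higher with testosterone, against 7.39% of all probes (3.18% higher). The labels of adipose XX E replicate 1 disagree, with estradiol in its title and testosterone as its agent. Kept as estradiol, it read 7.55 for Fam25c, close to the other XX E arrays. Fam25c is itself a gene under test here, so its level does not settle the label. Taken as testosterone, the array left Tmprss2 at 1.48 (adjusted p = 0.069, limma).

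Each slide lacked at least 1 capsule type, so hormone and slide were partly confounded, and values within slides are given beside the fit. On the 2 slides with estradiol and blank arrays of the ovary line, 2 of each, Fam25c differed by -2.86 and -1.91, Tmprss2 by -2.78 and -1.32, Ido1 by 0.13 and 1.96 and Wfdc2 by -0.26 and 1.04. On the 3 slides with testosterone and estradiol, which held 1 or 2 arrays of each, Fam25c differed by 1.30, 2.78 and 2.96 and Tmprss2 by 1.67, 1.78 and 1.79. Fam25c and Tmprss2 thus kept their direction on each such slide.

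In the testis line, no estradiol or testosterone difference passed. Estradiol minus blank called 0 of 5 genes by limma (0 at an unadjusted p under 0.05), beside 10.1% of all probes, and testosterone minus blank 0 of 4 (3 at an unadjusted p under 0.05), beside 3.55%. Fam25c was 5.93 ± 0.47 (n = 9) with the blank, 6.91 ± 1.29 (n = 10) with testosterone and 6.36 ± 0.46 (n = 9) with estradiol, and was detected in 2 of 9, 9 of 10 and 7 of 9 arrays. Testosterone minus blank was 0.99 ± 0.35 for Fam25c (adjusted p = 0.11), 1.09 ± 0.47 for Tmprss2 (adjusted p = 0.21) and -0.94 ± 0.47 for Ido1 (adjusted p = 0.28). Without XXSry T replicate 2, in which Fam25c was not detected (4.88), the Fam25c difference was 1.27 with an adjusted p of 0.011. The highest testis-line Fam25c value, 8.76 in XY-Sry T replicate 1, came from the array with the highest mean of the liver marker list, 13.28 against 4.92 to 10.64 in the other testis-line arrays. Without that array the difference was 0.74 (adjusted p = 0.22). In XY-Sry B no array detected Fam25c, so that the XY- B level (8.65) was at least 6.05-fold higher, taking the lowest well-detected signal for the dim group.

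The estradiol difference of Fam25c differed between the lines. The test of that difference, testis line minus ovary line, gave 2.24 ± 0.51 (adjusted p = 0.011, limma), and it was the 1 gene of 5 that passed, against 0.813% of all probes. Without XX B replicate 3 the value was 2.03 at an adjusted p of 0.054. Since Fam25c with the blank capsule was near the detection limit in the testis line, a fall there could not be measured. Tmprss2 gave 2.27 ± 0.69 and did not pass (adjusted p = 0.15). The same test for testosterone called 0 of 4 genes by limma (0 at an unadjusted p under 0.05), against 0.0137% of all probes.

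**Figure D2:**
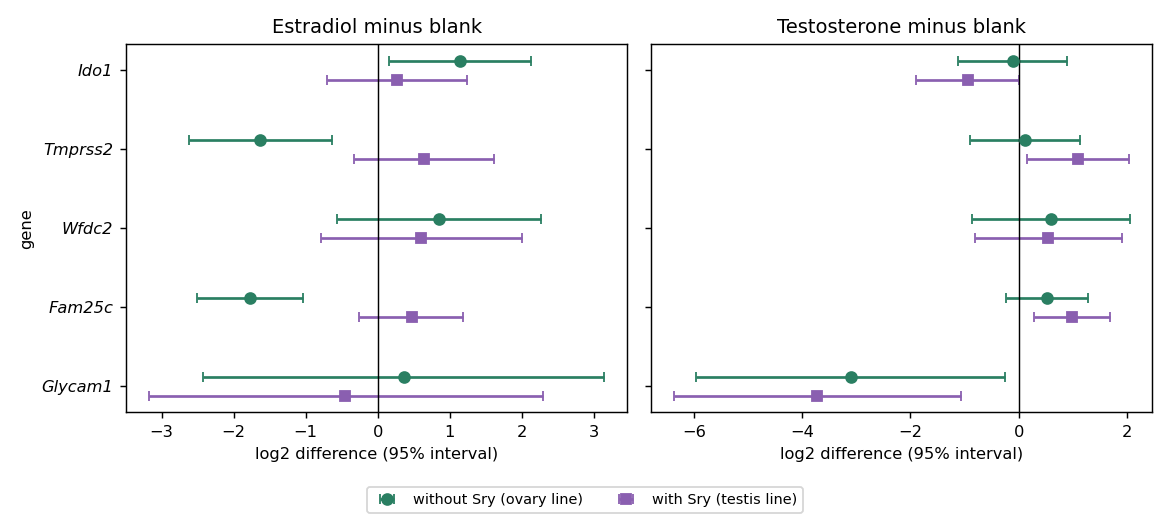
Fitted log2 difference (x axis) of each gene (y axis) for estradiol minus blank (left) and testosterone minus blank (right), in mice without Sry (circles) and with Sry (squares); bars are 95% intervals from the limma fit. For estradiol in mice without Sry, Fam25c is at -1.77 and Tmprss2 at -1.63; the Glycam1 values for testosterone are a description, since that gene was chosen on them.

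Glycam1 varied within groups over almost its whole range. In XX B it read 9.84, 12.80 and 11.53, and in XX E 6.84, 13.68, 14.00, 4.66 and 5.15, of which the last 2 were not detected. In XY- E all 5 arrays were high, at 13.63, 13.41, 13.24, 13.49 and 12.92. In XX T it read 11.49, 5.20, 4.97 and 6.31, and in XY- T 5.55, 8.20, 10.27, 7.12 and 10.27. Estradiol minus blank in the ovary line was 0.36 ± 1.38 (adjusted p = 0.93), with a 95% interval of -2.42 to 3.15 and values of -0.28 to 0.89 when single arrays were left out. The genotypes lay in opposite directions, at -2.52 ± 2.09 in XX and 3.25 ± 1.81 in XY-, and neither passed (adjusted p = 0.52 and 0.37). Testosterone minus blank, on which the gene was chosen, was -3.10 ± 1.42 in the ovary line and -3.72 ± 1.32 in the testis line. Its direction differed between the slides that held both capsules, with 1 or 2 arrays of each in a line. Within these slides it was -6.88 and 1.43 in the ovary line, and -5.15 and 1.49 in the testis line. The summed signal of 20 lymph node genes, which include Cd79a and Cd3e, had a median of 5472 (1087 to 59017) with the blank, 4160 (1228 to 52256) with testosterone and 20853 (1266 to 50812) with estradiol in the ovary line. In the testis line the medians were 31437, 2076 and 16153. In testosterone minus blank, 0 of the 20 genes passed in either line by limma (0 in the ovary line and 7 in the testis line at an unadjusted p under 0.05), with a median difference of -0.54 in the ovary line and -1.78 in the testis line. Chst4, the sulfotransferase that marks high endothelial venules, was not detected in any adipose array, but the other 5 genes of the high endothelial venule list passed the filter. Their mean in the XX E arrays, in the order given above, was 6.2, 7.85, 8.55, 6.87 and 6.80. Their summed signal in the ovary line had a median of 1633 with the blank, 1250 with testosterone and 4836 with estradiol. In the testis line these medians were 5221, 566 and 3089. The part of lymph node in the Glycam1 differences was not tested.

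Ordered by group mean, the 6 ovary-line groups held the top 6 places for Ido1, Tmprss2, Wfdc2 and Fam25c. Of the 11 gaps between neighbouring groups, 1 exceeded the larger SD of the pair for Ido1, 2 for Tmprss2, 2 for Wfdc2, 2 for Fam25c and 0 for Glycam1. Ido1 fell from 12.41 ± 0.58 in XY- E to 10.47 ± 0.35 in XY- B with no gap above the spread, then dropped by 2.40 to XXSry E. Tmprss2 was highest in XX B (11.83 ± 0.26), and the gaps above XX T and from XY- E to XX E exceeded the spread. Wfdc2 was highest in XY- E (13.47 ± 0.44) and lowest of the ovary line in XY- B (11.64 ± 0.50), and the gaps below XY- E and above XY- B exceeded the spread. Its widest gap, 1.91 from XY- B to XXSry T, lay within the SD of XXSry T. For Fam25c the gaps below XY- T (9.74 ± 0.77) and below XY- B (8.65 ± 0.81) exceeded the spread, and XX E (7.70 ± 0.23) and XY- E (7.53 ± 0.55) did not differ beyond their spread.

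The genes of the surrounding pathways and cell types were then counted. In the line contrast, 21 of 23 luminal mammary genes, 9 of 10 basal mammary genes and 6 of 9 milk genes were lower in the testis line at an adjusted p under 0.05, against 4.71% of all probes, and 0 of 20 lymph node genes were (2 at an unadjusted p under 0.05 in either direction, limma). Krt18, a keratin of luminal cells, was 9.98 ± 0.83 against 6.26 ± 1.39, and Csn3 was 11.80 ± 0.66 against 7.61 ± 2.04. Adipoq (adiponectin), a defining gene of adipocytes, was 13.83 ± 0.24 against 14.02 ± 0.17. Of 12 adipocyte genes, 3 were higher in the testis line (7 at an unadjusted p under 0.05 in either direction, limma), against 2.63% of all probes. The median difference of that list was 0.24. The median differences were -1.96 for the luminal, -1.06 for the basal and -3.07 for the milk list, beside 0.03 for all probes. These lists were drawn up with earlier results of these data known.

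With estradiol in the ovary line, where 5.10% of all probes were called higher and 5.10% lower, most luminal and milk genes were not called. Of 23 luminal genes, 8 rose and 2 fell, with a median of 0.37 beside -0.01 for all probes. Areg, an estrogen-induced ligand of the EGF receptor, rose by 4.57 ± 0.46 (adjusted p = 2.06e-10, limma), and the keratin Krt19 rose by 2.07 ± 0.48. Cited1, a transcriptional cofactor of estrogen receptor, fell by 1.98. Of 10 basal genes 5 rose, among them Lgals7 by 2.62 and Sfn by 1.97, and of 9 milk genes Muc1 and Wfdc18 rose, by 0.85 and 1.59. Csn3 (0.63 ± 0.66, adjusted p = 0.66) and Krt18 (0.83 ± 0.52, adjusted p = 0.37) did not pass.

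Among relatives of the genes, 4 of 6 membrane proteases and their inhibitors rose with estradiol in the ovary line (Prss22, Tmprss13, St14 and Spint1, by 0.66 to 0.99), and 3 of 5 proteins with whey acidic protein domains rose (Slpi by 3.30, Wfdc3 by 1.78, Wfdc18 by 1.59), beside 5.10% of all probes. Of the kynurenine pathway genes 0 of 7 passed in limma (0 at an unadjusted p under 0.05), and of 13 genes induced by interferon-gamma, Cxcl9 alone passed and fell by 0.85. Ido2 and Tdo2, which catalyse the same reaction as Ido1, were not detected in any ovary-line array. Of 10 genes of the estrogen and progesterone response 3 rose and 3 fell, beside 5.10% of all probes in each direction, with Greb1 at 3.66 ± 0.21 and Pgr (progesterone receptor) at 1.27 ± 0.17 higher and Esr1 (estrogen receptor alpha) at -1.08 ± 0.26. With testosterone minus blank in the ovary line, 0 genes passed in each of the 15 lists by limma (0 to 2 a list at an unadjusted p under 0.05).

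Among markers of other tissues in the dissected pads, 2 of 4 skin genes rose with estradiol in the ovary line (Ivl by 2.36, Krt15 by 2.14), and 0 of 15 skeletal muscle genes passed in limma (0 at an unadjusted p under 0.05). Of 10 liver genes 1 fell (list median -0.95), and of 12 adipocyte genes 2 fell (list median -0.35), beside 5.10% of all probes lower. The summed liver signal had a median of 1748 (484 to 5895) with the blank and 443 (344 to 14148) with estradiol. The summed skeletal muscle signal had a median of 219422 (36251 to 278531) with the blank and 74246 (5864 to 271828) with estradiol, and these ranges overlapped. The means of the lymph node, skeletal muscle and liver lists were then used as covariates, and that of the skin list was not. With them, estradiol minus blank was -1.72 ± 0.32 for Fam25c (adjusted p = 1.25e-04, limma), -1.74 ± 0.47 for Tmprss2 (adjusted p = 0.0082), 0.92 ± 0.45 for Ido1 (adjusted p = 0.18) and 0.67 ± 0.64 for Wfdc2 (adjusted p = 0.56). Fam25c and Tmprss2 passed with these covariates as well. The luminal and milk lists, with which both genes moved within groups, were not among the covariates. The part of mammary tissue in these differences was therefore not tested.

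Within groups, Tmprss2, Wfdc2 and Ido1 rose and fell together. Values were centred on the group mean, and p-values come from 100000 permutations within groups (two-sided), adjusted over 10 pairs of genes. In the 27 ovary-line arrays Tmprss2 and Wfdc2 had Pearson's r = 0.86 (permutation p = 2e-05, adjusted 0.0002) and Spearman's rho = 0.80 (permutation p = 0.00013), and r was 0.84 without the 2 arrays farthest from the median of Tmprss2. Ido1 followed Wfdc2 (r = 0.68, adjusted permutation p = 0.00455; rho = 0.63) and Tmprss2 (r = 0.65, adjusted permutation p = 0.00513; rho = 0.51). Fam25c followed Wfdc2 more loosely (r = 0.61, adjusted permutation p = 0.0306; rho = 0.53), and without the 2 farthest arrays r stayed 0.61 at an adjusted p of 0.0554. Fam25c with Ido1 (r = 0.45, adjusted permutation p = 0.0504; rho = 0.50) and with Tmprss2 (r = 0.50, adjusted permutation p = 0.0647; rho = 0.38) did not pass. Both pairs passed without background correction (adjusted permutation p = 0.0352 for each) and with median centring (r = 0.68 and 0.69), and Fam25c with Ido1 also by Spearman (adjusted permutation p = 0.0428) and with values centred on slide (r = 0.62). Thus 4 of 10 pairs passed, and 0 of the 4 pairs with Glycam1, whose r ran from -0.14 to 0.31. The share of pairs of other genes that would pass this test is not given for either line, so the counts are not read as particular to these genes.

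The 28 testis-line arrays gave 5 of 10 pairs past the threshold. Tmprss2 and Wfdc2 had r = 0.92 (permutation p = 1e-05, the smallest these permutations give), Ido1 and Wfdc2 r = 0.81 and Ido1 and Tmprss2 r = 0.67. Tmprss2 and Fam25c had r = 0.62, which was 0.51 with an adjusted p of 0.0921 without the 2 farthest arrays. Wfdc2 and Fam25c had r = 0.53. Without XXSry T replicate 4 or replicate 5, 3 pairs passed. XXSry T replicates 3, 4 and 5 read 9.16, 8.90 and 9.61 for Tmprss2, 10.86, 11.16 and 11.55 for Wfdc2 and 7.96, 8.09 and 8.36 for Fam25c, the 3 highest Tmprss2 values of the testis line. In XY-Sry E replicate 1, Ido1 (10.54) and Wfdc2 (11.86) were the highest of the testis line, while Tmprss2 was 7.84.

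**Figure D3:**
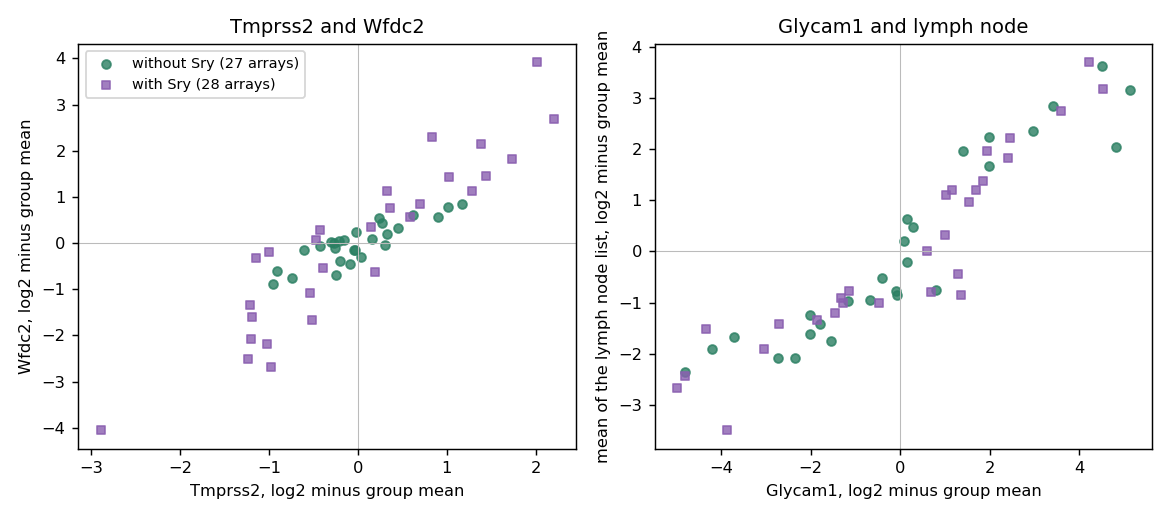
Values of each adipose array minus its group mean (log2), for Wfdc2 against Tmprss2 (left) and for the mean of the lymph node list against Glycam1 (right); circles are mice without Sry and squares mice with Sry. The pairs have r = 0.86 and 0.94 in the 27 arrays without Sry.

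The same centred values were set against the means of 15 marker lists, 75 pairs of gene and list in each line. In the ovary line 25 of 75 pairs passed, and in the testis line, added after seeing the data, 22 of 75. The share that other genes would give against these lists was not available for comparison. The luminal mammary list followed Wfdc2 (r = 0.95), Tmprss2 (r = 0.92), Ido1 (r = 0.68) and Fam25c (r = 0.63) in the ovary line, each past the adjusted permutation threshold of 0.05, and Glycam1 did not pass with it (r = 0.25). In the testis line these values were 0.89, 0.89, 0.72, 0.65 and -0.05. The milk list passed with the same 4 genes in the ovary line, from r = 0.54 for Fam25c to 0.82 for Wfdc2. For Fam25c the milk list did not pass without the 2 farthest arrays (adjusted permutation p = 0.0582), nor the luminal list by Spearman (adjusted permutation p = 0.0503). The lymph node list followed Glycam1 (r = 0.94 in the ovary line and 0.93 in the testis line, adjusted permutation p = 0.000107 and 0.000187) and passed with none of the other 4 genes in the ovary line. Glycam1 ran against the adipocyte list (r = -0.69 and -0.66) and the skeletal muscle list (r = -0.64 and -0.52). Arrays share slides, and the genes of a pad share its dissection, so these are descriptions of what varied together.

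**Figure D4:**
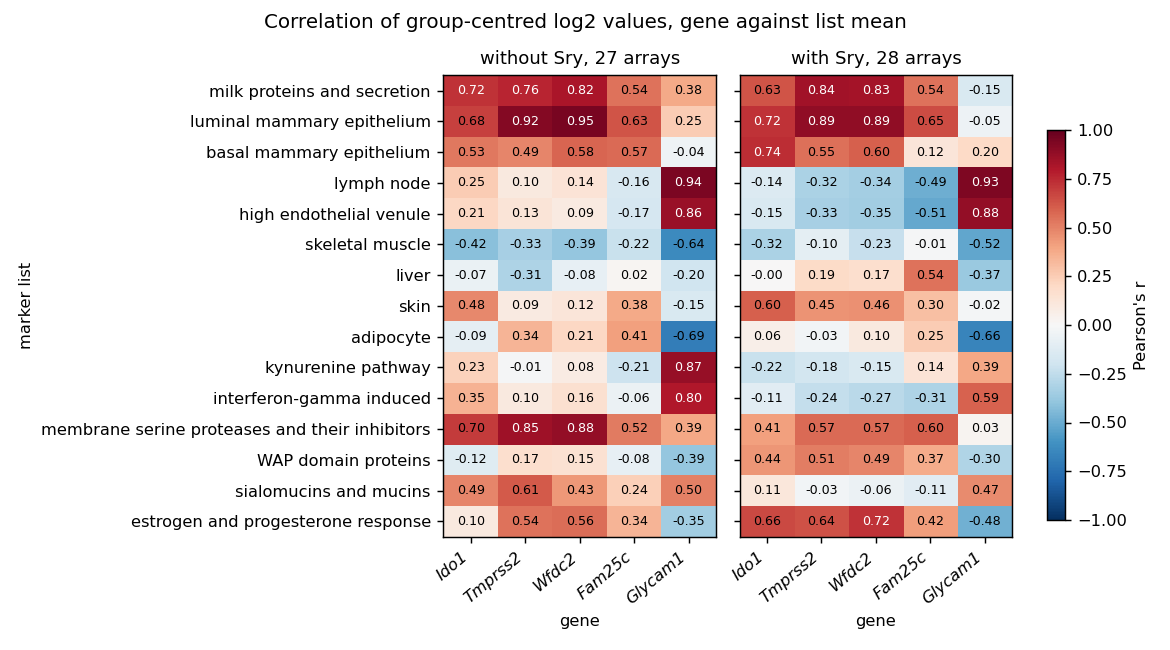
Pearson's r between each gene (x axis) and the mean of each marker list (y axis), from values centred on the group mean, in mice without Sry (left) and with Sry (right); red is positive and blue negative. The luminal row is 0.95 for Wfdc2 and 0.92 for Tmprss2 on the left, and the lymph node row is 0.94 for Glycam1.

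Single genes most like each of the 5 over the 27 centred ovary-line arrays, of 10866 candidates, were Cldn4 (r = 0.95), Prlr (0.93) and Krt18 (0.92) for Wfdc2. For Tmprss2 they were Tfap2b (0.90), Stc2 (0.89) and Aqp5 (0.89), for Ido1 Papss1 (0.86), Grb7 (0.85) and Cpsf4l (0.82), and for Fam25c Fxyd3 (0.79), Crip2 (0.78) and the transcript listed as 5832424M12 (0.77). For Glycam1 they were Fcmr (0.97), Cd8b1 (0.96) and Cd79a (0.95), all genes of lymphocytes. Over the 12 group means, the closest were Gata3 for Ido1 (0.98), Btn1a1 for Tmprss2 (0.99), Fxyd3 for Wfdc2 (0.99), Hdac11 for Fam25c (0.99) and Mob3a for Glycam1 (0.96). Ido1, Tmprss2, Wfdc2 and Fam25c were chosen on the line difference, so their 12 means split by line. Another gene with a line difference can thus reach a high r with them. These values are also the highest among 10866 candidates, and no likeness beyond the line difference is read from them.

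Liver, which the choice of the genes did not use, gave another pattern. Of the 5 genes 3 passed the filter there, with Wfdc2 and Fam25c detected in 60 of 60 arrays and Tmprss2 in all but 1. Glycam1 was detected in 0 and Ido1 in 1 of 60 liver arrays. In the line contrast, Wfdc2 (0.25 ± 0.14, adjusted p = 0.55) and Tmprss2 (-0.18 ± 0.14, adjusted p = 0.72) did not pass in limma. Fam25c was 9.12 ± 0.59 (SD, n = 30) without Sry and 8.67 ± 0.78 (n = 30) with it, a difference of -0.46 ± 0.13 (SE; adjusted p = 0.037). This was 1 of 3 genes, against 3.40% of all liver probes, and 24 of the 60 single-array omissions moved its adjusted p above 0.05. With the blank capsule alone Fam25c differed by -1.23 ± 0.23 (adjusted p = 4.9e-04), 1 of 3 genes against 1.75% of all probes. XX B livers read 8.78, 9.19, 9.71, 9.35 and 9.69 and XXSry B livers 7.36, 7.20, 8.48, 7.41 and 7.71, without overlap. XY- B livers read 8.19, 9.09, 8.96, 9.05 and 9.28 and XY-Sry B livers 7.92, 8.41, 7.63, 8.63 and 8.28, which overlapped.

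Fam25c was higher with either hormone in liver of the testis line. Its level was 7.90 ± 0.52 (SD, n = 10) with the blank, 9.19 ± 0.23 with estradiol and 8.91 ± 0.79 with testosterone. Both differences from the blank passed in limma (adjusted p = 3.3e-04 and 0.0023), in each case 1 of 3 genes, against 1.78% and 9.14% of all probes. With median centring in place of quantile normalisation the adjusted p was 0.0786 and 0.0833. The test of the difference between lines, testis line minus ovary line, did not pass for Fam25c. It gave 0.90 ± 0.33 for estradiol (adjusted p = 0.53) and 1.41 ± 0.33 for testosterone (adjusted p = 0.051, limma). In the ovary line Wfdc2 fell with testosterone by 1.03 (SE 0.25, adjusted p = 0.0040), 1 of 3 genes against 7.06% of all probes. In the testis line its difference was -0.18 ± 0.25 (adjusted p = 0.74, limma). The difference between lines did not pass for Wfdc2 (0.85 ± 0.35, adjusted p = 0.77, limma). XX B livers read 9.40, 9.39, 9.27, 8.77 and 8.22 for Wfdc2, and XX T livers 8.51, 7.92, 8.42, 7.58 and 7.81. XY- B livers read 8.41, 7.96, 8.36, 8.58 and 8.30, and XY- T livers 7.27, 7.55, 7.22, 7.80 and 6.27, all below the XY- B arrays. Testosterone minus estradiol in ovary-line liver was negative for all 3 genes, at -1.06 ± 0.25 for Wfdc2, -1.12 ± 0.23 for Tmprss2 and -0.79 ± 0.23 for Fam25c (adjusted p = 0.0016, 3.45e-04 and 0.014), against 13.5% of all probes. With median centring Fam25c was at -0.67 and did not pass (adjusted p = 0.26). The XY- E livers spread widely, from 6.77 to 10.87 for Wfdc2 and from 5.84 to 9.14 for Tmprss2. When single arrays were left out, the difference ran from -1.26 to -0.75 for Wfdc2 and from -1.30 to -0.89 for Tmprss2. All 3 genes passed in each of these omissions. In the fat of the same line, testosterone minus estradiol was positive for Tmprss2 (1.75) and Fam25c (2.29). The difference between tissues was not tested, since the tables were normalised separately. Estradiol minus blank in ovary-line liver called 0 of 3 by limma (1 at an unadjusted p under 0.05), against 2.47%.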

How the data were processed

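Per the file headers, the deposited tables hold for each array the mean bead intensity of every probe, not log-transformed, together with a deposited detection p-value. The submitters' processing notes name the package lumi, with no version. The array version and its genome build are not given in the sources used here. The 115 deposited columns of bead standard errors were not used. The lowest deposited intensity was 92.6 in adipose and 89.1 in liver.

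Each tissue was processed apart in limma 3.58.1 under R 4.3.3: normexp background correction with negative controls inferred from the detection p-values, an offset of 16 (which understates differences of dim probes), quantile normalisation and log2. Probes with a detection p under 0.01 in at least 3 adipose or 5 liver arrays were tested, 14636 and 11317 of 25697. A mean per group was fitted with lmFit and eBayes to all arrays of a tissue, and contrasts weight groups equally. Adjusted p-values are Benjamini-Hochberg values over all tested probes of a contrast, with 18 contrasts per tissue, and a probe is called under 0.05. Within-group correlations used Python 3.11.15 and numpy 2.4.6. The number of arrays limits the precision.

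Where a gene has more than 1 probe, the probe with the highest mean was used. Array symbols were updated through the RefSeq gene table of GRCm38.p6. The adipose array XX E replicate 1 has disagreeing treatment labels and was kept as estradiol. Beside the 5 genes, text names the 3 genes of a list with the smallest adjusted p in estradiol minus blank, defining markers, and the 3 genes closest in pattern; Prss22, Tmprss13, St14 and Spint1 are named as all members called, and Ido2, Tdo2, Adipoq and the milk genes as markers. The genes and all lists were chosen with earlier results of these data known. The scripts were tested on simulated data. Alternatives tried were background correction, normalisation, filter, slide as a block, array weights, marker covariates, the other label of the disputed array and each array left out. In liver, replicate 5 of XY-Sry T and replicate 5 of XY- E, which lay apart, were also left out together.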

Additional observations from a re-analysis of the deposited data

Results flagged for a closer look

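In groups of 4 to 10 arrays, a highest or lowest value was singled out when its gap to the nearest other array was a large share of the group's range (Dixon's 95% criterion). Among 91 combinations of gene and group, 9 met it, where chance alone gives about 1 in 20. In adipose, Tmprss2 was 6.93 in XY-Sry B replicate 2 against 5.04 to 5.16 in the others. Fam25c was 8.76 in XY-Sry T replicate 1 (others 5.88 to 6.64), the array whose liver marker mean was 13.28. Fam25c was 8.10 in XX E replicate 5 (others 7.55 to 7.70) and 8.50 in XY- E replicate 1 (others 7.19 to 7.40), the array with the highest skin marker mean of all, 10.18. Glycam1 was 7.81 in XY-Sry B replicate 2 (others 12.70 to 13.40), 10.41 in XY-Sry T replicate 5 (others 4.86 to 5.72) and 6.63 in XY-Sry E replicate 5 (others 12.22 to 13.46). The lymph node marker mean of those 3 arrays was 5.71, 10.08 and 6.17. In liver, Tmprss2 was 5.92 in XY- B replicate 5 (others 6.74 to 6.99) and 7.63 in XXSry T replicate 4 (others 5.96 to 6.30).

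The estradiol difference of Fam25c in adipose differed between the lines by 2.24 ± 0.51 (adjusted p = 0.011, limma). Without XX B replicate 3 the adjusted p was 0.054. In the testis line the blank level lay near the detection limit (detected in 2 of 9 arrays), so a fall there could not be measured.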

How the results depend on the processing

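No paired analysis was possible because the labels give the arrays no replicate numbers. The replicate numbers used here count the arrays of a group in the order in which the samples are listed in the series. Estradiol minus blank in ovary-line adipose called 2 of the 5 genes, and 1 with slide as a fixed block; single omissions gave 1 to 2. Testosterone minus estradiol there called 2, and 1 with the disputed array taken as testosterone; single omissions gave 2 to 3. The test of the estradiol difference between lines called 1, but 2 without background correction, with offset 50 and with array weights (Tmprss2 at adjusted p = 0.00942, 0.0329 and 0.0125), and 0 to 1 under single omissions. Testosterone minus blank in testis-line adipose called 0, and 0 to 1 under single omissions. The estradiol by sex chromosome test, whose alternatives were added after seeing the data, called 0, and 2 with array weights. The median line difference of the 5 genes was -4.25, and -2.89 without background correction.

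Over all probes, estradiol minus blank in ovary-line adipose called 1492, but 915 with median centring and 2404 with array weights, testosterone minus estradiol 1082 and 640 with median centring, and testosterone minus blank 61, with 29 to 155 over the alternatives. The estradiol by sex chromosome test called 38 probes, and 0 to 1744 over the alternatives. The estradiol by line test called 119, 44 with probes detected in at least 50% of arrays and 274 with array weights. Testis-line estradiol minus blank called 1484, 842 with median centring and 2966 with array weights, and testosterone minus blank 520, 178 and 880. In liver, median centring put the median difference of all probes at -0.24 for estradiol minus blank in the ovary line and moved the calls there from 280 to 719, those of estradiol minus blank in the testis line from 201 to 76, of testosterone minus blank there from 1034 to 410 and of testosterone minus estradiol in the ovary line from 1523 to 798.

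In liver, the line contrast called 1, but 0 without background correction, with median centring or with no filter, and 0 to 1 under single omissions. Estradiol minus blank and testosterone minus blank in the testis line each called 1, and 0 with median centring. Estradiol minus blank in the ovary line called 0, and 2 with slide as a fixed block. Testosterone minus blank in the ovary line called 1, and 2 with array weights. Of the pairs of genes, 5 passed in the testis line, and 3 to 5 under single omissions; in the ovary line 4 passed, and 3 to 6. Pairs of gene and list past the threshold in the testis line numbered 22, and 34 with values centred on slide as well. Fam25c and the kynurenine list there had r = 0.14, and -0.56 without the 2 arrays farthest from the median. The causes were not tested. The 1213 other alternative values of these counts and medians kept within 1.5 times the value given, or within the array spread. Dim signal limits the testis-line adipose values, since Fam25c with the blank capsule was detected in 2 of 9 arrays.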
